A study of Homo sapiens with 8 samples.

Results

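The response to all-trans retinoic acid (ATRA) was described in NB4 cells in which the histone demethylase KDM3B had been silenced. NB4 is an established line of acute promyelocytic leukemia (APL) that carries the PML/RARα fusion. The comparison set 2 libraries of ATRA-treated KDM3B-knockdown cells (shKDM3B+ATRA) against 2 libraries of the same knockdown cells without ATRA (shKDM3B), out of 8 RNA-seq libraries in the series. The other 4 were NB4 control cells without ATRA (scramble) and with ATRA (scramble+ATRA), 2 libraries each, and are used here only to place the knockdown response. All cells carried a stably transduced pLVX-shRNA2-puro construct, which the labels describe as an empty vector in the controls and the methods as a scrambled shRNA. The labels give 1 µM ATRA for 24 or 48 hours without saying which time belongs to which library, while the methods give the dose as 1 mM. The sources do not say which of the KDM3B hairpins was in the sequenced cells. The members were the 36200 gene names listed for all 4 knockdown libraries after HTSeq summary lines, 1155 names made of clone accessions and 171 further names were left out, of 75553 names in any of the 8 libraries. The 171 names had 10 or fewer counts in replicate 1 but 100 or more in replicate 2 of the ATRA-treated control cells. Members held 99.1% of the gene counts in both untreated and 95.7% in both treated knockdown libraries.

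In APL, the fusion of PML with the retinoic acid receptor RARα keeps retinoid target genes silent and holds the cells at the promyelocyte stage. Pharmacological ATRA releases this block, the fusion protein is degraded, and the cells move towards neutrophils, losing primary granule proteases and gaining surface integrins, the NADPH oxidase and secondary granule proteins. KDM3B is a JmjC-domain enzyme that removes methyl groups from lysine 9 of histone H3.

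From 19444480 to 33017787 read pairs were counted on genes in the untreated knockdown libraries and from 9708739 to 10318138 in the treated ones, so that low genes were measured less precisely with ATRA. One property of the libraries moved with the treatment. Of the uniquely aligned read pairs, 51.4% and 51.0% fell outside genes in the 2 shKDM3B+ATRA libraries, against 9.62% and 8.49% in the 2 shKDM3B libraries. Among the control cells, replicate 2 with ATRA (50.02%) was like the treated knockdown libraries and replicate 1 with ATRA (9.36%) like the untreated ones. The treated files also list 56609 names against 56470 in the untreated ones, of which 37526 were shared. In the knockdown cells, the effect of ATRA and whatever set this share therefore cannot be told apart from these 4 libraries. The list of names changed with ATRA in both lines, so ATRA and that change cannot be told apart in either. Values of the treated control replicate 1, whose share outside genes was like that of the untreated libraries, are given beside some of the results. That replicate shares its list of names with the other treated libraries. Nothing in the labels says that replicates were separate cultures, so the p-values measure only the spread between these libraries. In RNA from bulk cells, fewer cells that express a gene and less RNA per cell cannot be told apart.

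KDM3B, the targeted gene, was measured first. On a scale common to all 8 libraries it had 185 and 187 CPM (reads of a gene scaled to a common library size) in the scramble cells, 73.8 and 86.2 in the shKDM3B cells, 197 and 124 in the scramble+ATRA cells and 53.9 and 59.0 in the shKDM3B+ATRA cells. All 4 knockdown libraries lay below all 4 control libraries. Within the knockdown cells, KDM3B (chromosome 5 of hg38, 138352685 to 138437028) had a log2 fold change with ATRA of -0.51 (standard error 0.14, adjusted p = 0.0132 by edgeR, with the quasi-likelihood test and adjustment after Benjamini and Hochberg), a change smaller than the 1.5-fold asked of a call, but past it without shKDM3B replicate 1, at -0.64.

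The response was broad. Of 12459 genes with enough counts to be tested, 2693 rose (21.6%) and 2147 fell (17.2%) with ATRA, where a call required an adjusted p under 0.05 and a fold change of at least 1.5. Changes of more than 4-fold were found for 1089 of the genes that rose and 492 of those that fell, and changes of more than 16-fold for 609 and 87. The CPM of the treated libraries lay entirely above or below those of the untreated libraries for 4838 of the 4840 called genes and for 9508 of all tested genes (76.3%). Where groups of a called gene are said below not to overlap, this is therefore a description that adds no support to the call. Another 23741 members were too low to be tested, and a gene that passed the filter only through the group where it was high had to differ, so that its p is no evidence of its own. Named genes of this kind included FGR, HK3, BPI, CYP26B1, CYP4F3, S100A8, OAS1, BATF2 and, among those that fell, KLF4. Their adjusted p is given as a description only. Of the genes that rose, 436 had 3 or fewer counts in each untreated library. In 339 of these 436, the CPM of the 2 treated control libraries, which differ in the share outside genes, differed at least 2-fold, whereas of the 146 genes that fell to 3 or fewer counts this held for 23. It held for 790 of all 2693 genes that rose and for 1429 of all 12459 tested genes (11.5%), and it was read from the same 2 control libraries that were used to leave out the 171 names.

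**Figure D1:**
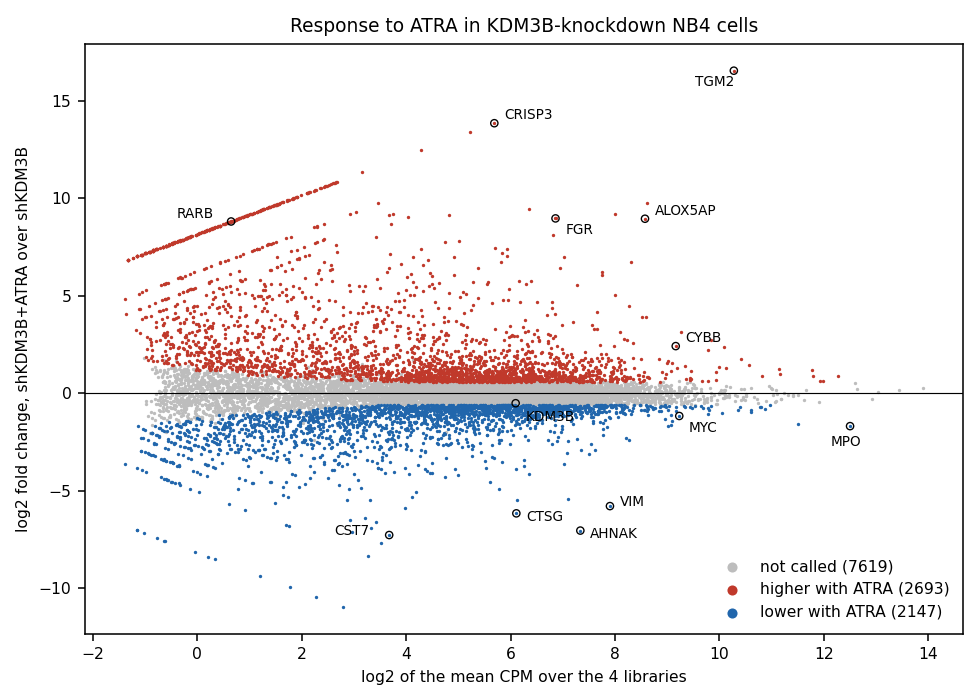
Log2 fold change between shKDM3B+ATRA and shKDM3B cells against the log2 of the mean CPM over the 4 libraries, 1 point per tested gene. Red points are the 2693 genes that rose, blue points the 2147 that fell and grey points those not called, and named genes are circled. The straight line of red points at the upper left is made of genes with 0 counts in both untreated libraries, whose fitted values depend on the prior count and are not measured folds.

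The genes with the largest rises were led by TGM2 (chromosome 20, 38127385 to 38166578), which encodes transglutaminase 2, a protein cross-linking enzyme. TGM2 had 0 and 1 counts in the untreated libraries and 21535 and 25297 with ATRA, or 2333 and 2624 CPM. The ratio of the pooled levels was 130530, with an exact 95% interval from 23426 to 5155763 that covers counting error only. In the treated control replicate 1, TGM2 had 95225 counts against 0 and 0 in the untreated control libraries.

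CRISP3 (chromosome 6, 49727376 to 49744437), a protein of neutrophil granules, had 0 and 0 counts without ATRA and 1063 and 880 with it, at least 848-fold higher when 3 counts per library are set as the floor. HIC1 (chromosome 17, 2054154 to 2063241), a transcriptional repressor, had 0 and 0 counts without ATRA and 552 and 865 with it, at least 614-fold higher. PTGES (chromosome 9, 129738331 to 129753042), the prostaglandin E synthase, had 0 and 0 counts without ATRA and 240 and 504 with it, at least 321-fold higher. All 4 genes were therefore found in both treated libraries and at or next to 0 in both untreated ones, and they entered the test only through the treated libraries. In the treated control replicate 1, CRISP3 had 160 counts, HIC1 899 and PTGES 1235.

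The other 6 of the 10 largest rises differed between the libraries with a high and a low share outside genes. EDRF1-AS1, OPA1-AS1 and RBM5-AS1 (antisense transcripts), ABALON (a noncoding RNA), CICP14 (a pseudogene) and KIF7 (a kinesin) had 0 counts in both untreated libraries and from 101 to 176 in each treated library. In the treated control cells, these genes had 0 or 1 counts in replicate 1 and from 26 to 95 in replicate 2. The treated knockdown libraries and the treated control replicate 2 thus stood together on the high side, and the part of the share outside genes in these 6 rises was not tested. Ranked among genes whose 2 treated control libraries lay within 2-fold of each other, a ranking chosen after seeing the data, the 10 largest rises included TGM2, CRISP3, PTGES, ARL14EPL, CCL24, KCNH4, FGR, ALOX5AP and HK3. HK3, a hexokinase of myeloid cells, had 0.305 and 0.273 CPM without ATRA and 62.9 and 66.4 with it, and its log2 fold change was 7.79 with a standard error of 0.24 (adjusted p = 3.09e-08, edgeR).

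Among the largest falls, RN7SL1, the RNA of the signal recognition particle, had 285 and 437 counts without ATRA and 0 and 0 with it, at least 43.6-fold lower. CYTL1 (chromosome 4, 5014586 to 5019458), a small secreted protein, had 140 and 407 counts without ATRA and 0 and 0 with it, at least 30.6-fold lower. NOG, the secreted BMP antagonist noggin, had 159 and 185 counts without ATRA and 0 and 0 with it, at least 21.5-fold lower. For these genes, both treated control libraries were also at 0 for RN7SL1 and CYTL1 and at 4 and 2 counts for NOG. The part of the changed list of names in these falls was not tested.

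SOX18, a SRY-box transcription factor, had 14.5 and 24.1 CPM without ATRA and 0.108 and 0 with it. The enzyme of acetylcholine synthesis, CHAT, had 15.2 and 30.4 CPM without ATRA and 0 and 0.207 with it. TERT, the catalytic subunit of telomerase, had 13.1 and 18.1 CPM without ATRA and 0 and 0.207 with it. The groups did not overlap for any of these genes, and each rested on 1 or 2 counts over both treated libraries. The pooled ratio was 387-fold for SOX18 (exact 95% counting interval 69.4 to 15319), 233-fold for CHAT (64.4 to 1928) and 153-fold for TERT (42.3 to 1267). AHNAK (chromosome 11, 62433542 to 62556235), a very large scaffold protein, fell from 325 and 316 CPM to 2.17 and 2.70, and its log2 fold change was -7.04 with a standard error of 0.18 (adjusted p = 1.77e-08, edgeR). The list of the 10 largest falls was completed by CST7, described with the granule genes, the annexin gene ANXA8L1 and the pseudogene PDXDC2P, both of which share sequence with close copies. VIM, the intermediate filament vimentin and chosen here after its values were seen, had 383 and 557 CPM without ATRA and 4.87 and 12.1 with it, with a log2 fold change of -5.78 with a standard error of 0.34 (adjusted p = 1.66e-06, edgeR). In the treated control replicate 1, AHNAK had 209 counts against 2850 and 5794 without ATRA, and VIM 196 against 6335 and 12174.

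**Figure D2:**
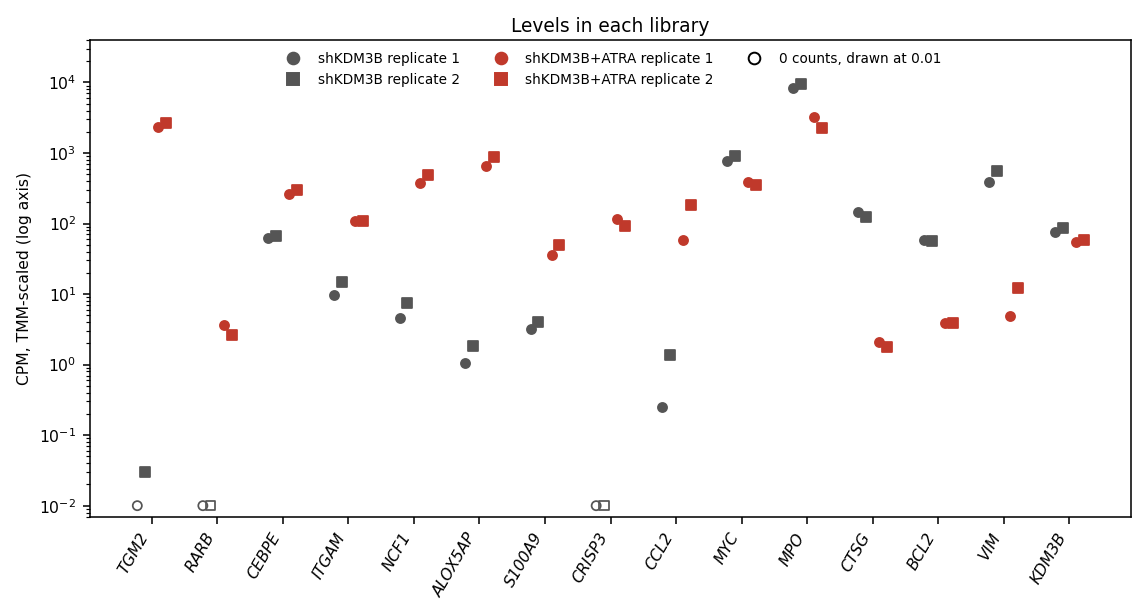
CPM of 15 named genes in each of the 4 knockdown libraries, on a log axis, with grey symbols for shKDM3B, red symbols for shKDM3B+ATRA, circles for replicate 1 and squares for replicate 2. Open symbols are libraries with 0 counts, drawn at 0.01. For 14 of the genes the groups differ by the 1.5-fold of a call, and KDM3B at the right end does not.

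Retinoid genes were taken first, since ATRA acts through RAR and RXR receptors and the enzymes that make and break down retinoids are among the known targets. Of 31 genes of retinoid metabolism and signalling, 17 were tested, of which 10 rose, 1 fell and 6 were not called. Their median log2 fold change was 1.89, against 0.03 over all tested genes. Among the genes that rose, 5 (TGM2, HIC1, RARB, ALDH1A3 and ALDH1A2) were at 0 to 3 counts without ATRA. These 5, like CYP26B1, passed the filter only through the treated libraries and so had to rise. The count that rose and the median are therefore descriptions, and their excess over all genes was not tested. The retinoic acid receptor RARB (chromosome 3, 24687887 to 25597932) had 0 and 0 counts without ATRA and 34 and 25 with it, at least 25.8-fold higher, and 46 in the treated control replicate 1. DHRS3, a retinal reductase, had 3.56 and 4.13 CPM without ATRA and 80.8 and 112 with it (log2 fold change 4.63, standard error 0.21, adjusted p = 3.48e-07 from edgeR). CYP26B1, a retinoic acid hydroxylase, had 0.102 and 0.152 CPM without ATRA and 4.77 and 11.7 with it (log2 fold change 5.89, standard error 0.59, adjusted p = 3.55e-05 from edgeR). The treated libraries were higher than the untreated ones for each of these genes. CYP26A1, the related hydroxylase, stayed too low to be tested, with 7 and 9 counts without ATRA and 4 and 21 with it, while the treated control libraries had 163 and 94. ALDH1A3, a retinaldehyde dehydrogenase, had 0 and 0 counts without ATRA and 25 and 12 with it, but 0 in the treated control replicate 1 and 8 in replicate 2. RXRA, the partner receptor, went the other way, from 140 and 215 CPM to 28.9 and 38.5, a log2 fold change of -2.40 with a standard error of 0.22 (adjusted p = 2.24e-05, edgeR). RARA, whose reads can also come from the fusion transcript, had 28.2 and 43.1 CPM without ATRA and 31.0 and 44.3 with it, groups that overlapped (log2 fold change 0.07, adjusted p = 0.813 from edgeR). PML had 68.2 and 105 CPM without ATRA and 140 and 148 with it, and its log2 fold change of 0.73 with a standard error of 0.19 (adjusted p = 0.00938, edgeR) fell to 0.41 without shKDM3B replicate 1.

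RAR and RXR are known to bind a direct repeat of a hormone receptor half-site with 5 bases between the copies. The half-site AGGTCA and its variants AGTTCA or GGGTCA or GGTTCA were searched in this arrangement, on both strands, in windows from 250 bases before to 50 bases after gene starts, taken from RefSeq on GRCh38.p14. The pattern was present in 31 of 35116 windows (0.0883%) and in 29 of 27305 gene symbols (0.106%). It was present in 2 of the 1938 matched genes that rose (0.103%), namely RARB and BATF2, in 0 of the 1522 that fell and in 5 of the 5831 that were tested and not called (0.0857%), shares near that of all symbols. The windows of RARB, BATF2 and CYP26A1 are shown because the first 2 are the genes that rose and the third is a retinoid gene of the list. Capitals mark the match, which lies 53 to 37 bases before the start in RARB (chr3:25428190-25428246, plus strand), 29 to 13 bases before it in BATF2 (chr11:64990278-64990326, minus strand) and, in the opposite orientation, 90 to 74 bases before it in CYP26A1 (chr10:93073783-93073839, plus strand).
RARB: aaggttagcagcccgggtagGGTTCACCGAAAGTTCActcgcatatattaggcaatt
BATF2: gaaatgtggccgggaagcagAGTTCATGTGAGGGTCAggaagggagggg
CYP26A1: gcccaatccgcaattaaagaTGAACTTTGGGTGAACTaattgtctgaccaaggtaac
BATF2, a basic leucine zipper factor of interferon responses, had 0.661 and 0.425 CPM without ATRA and 21.8 and 22.2 with it, a log2 fold change of 5.38 with a standard error of 0.30 (adjusted p = 1.18e-06, edgeR). A match of these letters is a description of the window and not a binding site.

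Transcription factors of the myeloid lineage moved in both directions. Of 44 listed, 43 were tested, of which 12 rose, 16 fell and 15 were not called, with a median log2 fold change of -0.43. CEBPE, which drives the late granulocyte program, had 61.4 and 65.9 CPM without ATRA and 266 and 295 with it (log2 fold change 2.14, standard error 0.13, adjusted p = 1.77e-06 from edgeR). SPI1, the master regulator PU.1, had 106 and 155 CPM without ATRA and 230 and 267 with it (log2 fold change 0.93, standard error 0.18, adjusted p = 0.00200 from edgeR). IRF1, a factor of interferon responses, had 17.7 and 23.6 CPM without ATRA and 229 and 235 with it (log2 fold change 3.48, standard error 0.16, adjusted p = 3.98e-07 from edgeR). The treated groups lay above the untreated ones for these 3 factors. GFI1B, a transcriptional repressor, had 0.356 and 0.850 CPM without ATRA and 39.9 and 29.5 with it (log2 fold change 5.73), and ID1, which blocks basic helix-loop-helix factors, had 0.203 and 0.213 CPM and 10.9 and 12.7 (log2 fold change 5.77).

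Factors on the falling side included KLF4, a Krüppel-like factor, with 6.15 and 6.38 CPM without ATRA and 0.325 and 0.207 with it (log2 fold change -4.53, standard error 0.44, adjusted p = 2.95e-05 from edgeR). JUN, a subunit of AP-1, had 9.71 and 8.90 CPM without ATRA and 0.758 and 1.14 with it (log2 fold change -3.28, standard error 0.34, adjusted p = 4.76e-05 from edgeR). GATA2, a factor of stem and progenitor cells, had 82.4 and 107 CPM without ATRA and 15.7 and 20.9 with it (log2 fold change -2.37, standard error 0.19, adjusted p = 1.12e-05 from edgeR). CEBPA, the factor of granulocyte commitment, fell from 190 and 203 CPM to 111 and 110, a log2 fold change of -0.83 with a standard error of 0.12 (adjusted p = 4.13e-04, edgeR). MYB, a factor of progenitor growth, fell from 644 and 542 CPM to 391 and 372 (log2 fold change -0.63, standard error 0.13, adjusted p = 0.00270 from edgeR). Its call was lost without shKDM3B replicate 1, at -0.55, and in the fit of all 8 libraries (adjusted p = 0.0891, edgeR). KLF2, another Krüppel-like factor, had 19 and 28 counts without ATRA and 1 and 0 with it, and was not called without shKDM3B+ATRA replicate 2 or with DESeq2 (adjusted p = 0.0662). ZBTB16, the repressor PLZF and named after its values were seen, had 353 and 620 counts without ATRA and 1 and 3 with it. None of these falling genes overlapped between the groups.

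Genes of the primary granule, which is packed at the promyelocyte stage, were split. Of 26 listed, 23 were tested, of which 8 rose, 9 fell and 6 were not called. MPO (chromosome 17, 58269855 to 58280935), myeloperoxidase and the highest gene of the list, had 8249 and 9422 CPM without ATRA and 3217 and 2292 with it, and its log2 fold change was -1.68 with a standard error of 0.16 (adjusted p = 3.04e-05, edgeR). CTSG (chromosome 14, 24573518 to 24576250), the serine protease cathepsin G, had 147 and 125 CPM without ATRA and 2.06 and 1.76 with it, a log2 fold change of -6.15 with a standard error of 0.21 (adjusted p = 5.97e-08, edgeR). CST7, the cathepsin inhibitor cystatin F, had 17.1 and 33.7 CPM without ATRA and 0.217 and 0.104 with it, a pooled ratio of 173 (exact 95% counting interval 59.1 to 840). MS4A3, a membrane protein of promyelocytes, fell from 115 and 96.1 CPM to 9.53 and 8.61. For all 4 genes, both treated libraries lay below both untreated ones. The rising members included BPI, a bactericidal protein, with 0.102 and 0.304 CPM without ATRA and 38.6 and 38.7 with it (log2 fold change 7.38, standard error 0.32, adjusted p = 2.43e-07 from edgeR). The defensins DEFA3 and DEFA4 rose as well, DEFA4 from 10.3 and 6.65 CPM to 221 and 205, with the reads of DEFA3 shared with near-identical copies. SERPINB1, an inhibitor of neutrophil proteases, had 16.6 and 15.2 CPM without ATRA and 145 and 148 with it. ELANE, PRTN3 and AZU1, other proteases of this granule, were listed at 20 or fewer counts in each knockdown library, and the cause was not tested.

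Of 29 genes of the specific, gelatinase and secretory granules, 18 were tested, of which 7 rose, 4 fell and 7 were not called, with a median log2 fold change of 0.53. CRISP3 rose from 0 as given above. MMP8, the neutrophil collagenase, had 0 and 2 counts without ATRA and 84 and 100 with it, a pooled ratio of 256 (exact 95% counting interval 70.0 to 2133). FGR, a Src-family kinase, had 0.457 and 0.456 CPM without ATRA and 204 and 260 with it, a log2 fold change of 8.97 with a standard error of 0.23 (adjusted p = 1.77e-08, edgeR). CYP4F3, which inactivates leukotriene B4, had 0.457 and 0.304 CPM without ATRA and 16.03 and 17.5 with it (log2 fold change 5.49, standard error 0.33, adjusted p = 1.82e-06 from edgeR). MMP9, the gelatinase B that names one of these granules, went down from 17.6 and 25.4 CPM to 1.19 and 1.76, a log2 fold change of -3.85 with a standard error of 0.32 (adjusted p = 1.11e-05, edgeR). Other members that define the specific granule, LTF, LCN2 and CAMP among them, had too few counts to be tested.

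The NADPH oxidase makes superoxide in the phagosome, and 6 of its 9 tested genes rose, 1 fell and 2 were not called, of 10 listed. CYBB, the catalytic subunit gp91phox, had 190 and 171 CPM without ATRA and 866 and 1065 with it, and its log2 fold change was 2.42 with a standard error of 0.14 (adjusted p = 1.55e-06, edgeR). NCF1, the subunit p47phox, had 4.62 and 7.56 CPM without ATRA and 370 and 480 with it (log2 fold change 6.09), but shares reads with its pseudogenes. The groups were well apart for both subunits. HVCN1, the proton channel that balances the oxidase's charge, was the member that fell, from 45.8 and 70.9 CPM to 7.58 and 9.85 (log2 fold change -2.74, standard error 0.25, adjusted p = 1.85e-05 from edgeR).

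Of 14 S100 proteins, 9 were tested, of which 2 rose (22.2%), 1 fell (11.1%) and 6 were not called. Of all tested genes, 21.6% rose and 17.2% fell, so the share that rose was near that of all genes. S100A8 had 0.457 and 0.334 CPM without ATRA and 10.9 and 18.7 with it, and S100A9, its partner in calprotectin, 3.20 and 4.04 CPM and 35.8 and 48.8. Their log2 fold changes were 5.24 (standard error 0.40) and 3.53 (standard error 0.23), with adjusted p = 7.30e-06 and 2.66e-06 from edgeR. Replicate 2 of the treated cells was the higher of the pair for both genes. S100A6, a calcium sensor, fell from 118 and 222 counts to 20 and 26, at the lower depth of the treated libraries.

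Integrins and other adhesion molecules had one of the highest shares of rising genes. Of 26 listed, 23 were tested, of which 16 rose, 1 fell and 6 were not called, with a median log2 fold change of 1.33. ITGAM (chromosome 16, 31259967 to 31332892), which encodes CD11b, the marker by which the differentiation of NB4 cells is commonly followed, had 9.76 and 14.8 CPM without ATRA and 107 and 109.5 with it. Its log2 fold change was 3.13 with a standard error of 0.20 (adjusted p = 2.34e-06, edgeR). ITGB2, the β chain it pairs with, rose from 114 and 156 CPM to 365 and 445 (log2 fold change 1.59, standard error 0.17, adjusted p = 5.88e-05 from edgeR). ITGAX, which encodes CD11c, had 4.01 and 8.38 CPM without ATRA and 49.9 and 82.1 with it. The treated libraries lay above the untreated ones for all 3 chains. JAML, a junctional adhesion molecule of leukocytes, had 0.305 and 0.456 CPM without ATRA and 15.1 and 21.4 with it, and CEACAM1, a carcinoembryonic antigen-related molecule, 0 and 1 counts and 37 and 67. ITGA5, the fibronectin receptor chain, was the member that fell, from 317 and 326 CPM to 111 and 115 (log2 fold change -1.51, standard error 0.12, adjusted p = 9.15e-06 from edgeR).

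Of 44 chemoattractant, Fc, complement and pattern receptors, 30 were tested, of which 13 rose, 6 fell and 11 were not called, with a median log2 fold change of 0.48. P2RY13, a receptor for ADP, had 0 and 0 counts without ATRA and 60 and 65 with it, at least 54.4-fold higher. CXCR2, the receptor for interleukin 8, had 2.79 and 2.73 CPM without ATRA and 17.1 and 16.9 with it (log2 fold change 2.62, standard error 0.24, adjusted p = 2.08e-05 from edgeR). CSF3R, the receptor for G-CSF, had 54.2 and 47.9 CPM without ATRA and 142 and 144 with it (log2 fold change 1.49, standard error 0.13, adjusted p = 1.64e-05 from edgeR). Both treated libraries were higher in each case. PTAFR, the receptor for platelet-activating factor, had 15.9 and 15.2 CPM without ATRA and 107 and 97.3 with it (log2 fold change 2.72, standard error 0.15, adjusted p = 8.36e-07 from edgeR). CCR1, a chemokine receptor, rose from 9.40 and 11.1 CPM to 53.95 and 76.8, and ADGRE5, the adhesion receptor CD97, from 98.0 and 118 CPM to 175 and 201. CCR2, a chemokine receptor of monocytes, had 28 and 48 counts without ATRA and 0 and 1 with it, a pooled ratio of 27.3 (exact 95% counting interval 4.75 to 1091). The formyl peptide receptor FPR1 and the Fc receptor FCGR3B, markers of mature neutrophils, were too low to be tested.

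Enzymes of leukotriene and prostaglandin synthesis were represented by 12 tested genes of 19, of which 7 rose, 1 fell and 4 were not called. ALOX5AP (chromosome 13, 30713478 to 30764426), the activating protein of 5-lipoxygenase, had 1.07 and 1.85 CPM without ATRA and 655 and 867 with it, and its log2 fold change was 8.95 with a standard error of 0.26 (adjusted p = 2.59e-08, edgeR). In the treated control replicate 1 it had 19160 counts against 71 and 110 without ATRA. PTGS1, the cyclooxygenase COX-1, had 7.93 and 13.3 CPM without ATRA and 151 and 138 with it (log2 fold change 3.74, standard error 0.23, adjusted p = 1.79e-06 from edgeR). PTGES3, a cochaperone also known as cytosolic prostaglandin E synthase, rose from 555 and 470 CPM to 859 and 885 (log2 fold change 0.77, standard error 0.13, adjusted p = 8.02e-04 from edgeR). The fit of all 8 libraries did not call PTGES3 (adjusted p = 0.0715, edgeR). LTC4S, the leukotriene C4 synthase, had 1 and 5 counts without ATRA and 19 and 30 with it. ALOX12, a lipoxygenase, had 0 and 0 counts without ATRA and 41 and 45 with it, but 0 in the treated control replicate 1 and 42 in replicate 2. ALOX5 itself was listed at 0 counts in all 8 libraries.

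Of 33 chemokines and cytokines, 17 were tested, of which 8 rose, 3 fell and 6 were not called. CCL2, a monocyte attractant, had 0.254 and 1.37 CPM without ATRA and 58.9 and 185 with it, both libraries of the second replicate being higher than their partners (log2 fold change 7.04, standard error 0.65, adjusted p = 2.10e-05 from edgeR). CCL24, an eosinophil attractant, had 2 and 0 counts without ATRA and 271 and 237 with it, a pooled ratio of 708 (exact 95% counting interval 195 to 5862). IL1B had 0.762 and 0.972 CPM without ATRA and 1.73 and 6.12 with it, and its log2 fold change of 2.16 with a standard error of 0.54 (adjusted p = 0.00889, edgeR) dropped to 0.98 without shKDM3B+ATRA replicate 2, where it was no longer called. TGFB1, a cytokine that restrains growth, rose from 53.7 and 96.5 CPM to 133 and 155 (log2 fold change 0.93, standard error 0.23, adjusted p = 0.00847 from edgeR). That value dropped to 0.53 without shKDM3B replicate 1, which ended the call, and the fit of all 8 libraries gave an adjusted p of 0.0590 by edgeR. The receptor antagonist IL1RN fell from 68 and 106 counts to 1 and 2, and the growth factor HGF from 31 and 66 counts to 0 and 2, the latter not called in the fit of all 8 libraries.

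Genes of coagulation and fibrinolysis, of interest because APL cells cause bleeding, showed no common direction. Of 20 listed, 14 were tested, of which 6 rose, 3 fell and 5 were not called. F3, tissue factor and the trigger of coagulation, fell from 23.6 and 20.5 CPM to 3.57 and 5.19 (log2 fold change -2.33, standard error 0.24, adjusted p = 4.81e-05 from edgeR). ANXA2, a cell-surface receptor for plasminogen, went from 32.9 and 52.3 CPM to 11.6 and 8.09 (log2 fold change -2.12, standard error 0.26, adjusted p = 1.49e-04 from edgeR). THBS1, the adhesive glycoprotein thrombospondin, rose from 22.2 and 26.5 CPM to 55.6 and 77.0 (log2 fold change 1.44, standard error 0.19, adjusted p = 1.97e-04 from edgeR). PROS1, the anticoagulant protein S, had 1.17 and 1.49 CPM without ATRA and 11.3 and 11.6 with it. PLAU, the activator urokinase, rose from 10.7 and 19.5 CPM to 50.9 and 51.4 (log2 fold change 1.75, standard error 0.25, adjusted p = 3.44e-04 from edgeR), and F5, coagulation factor V, from 0 and 3 counts to 60 and 82.

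**Figure D3:**
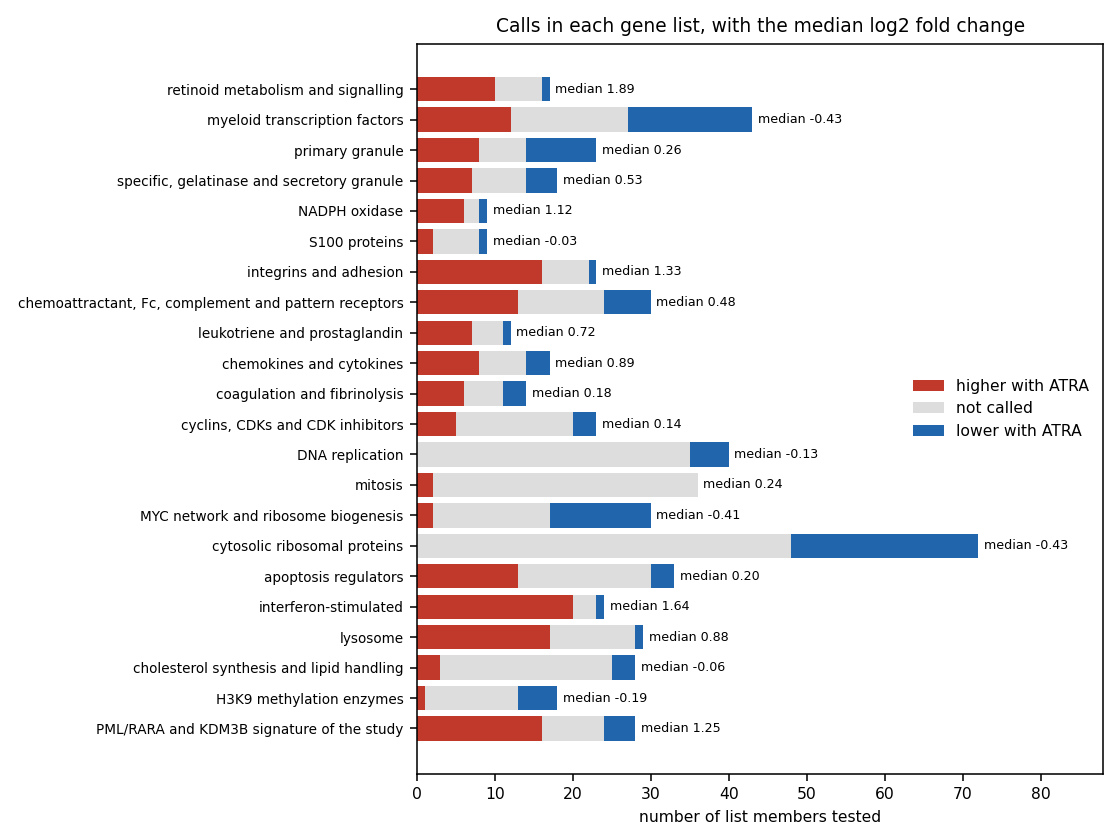
Number of tested members of each gene list that rose (red), were not called (grey) or fell (blue) with ATRA in the knockdown cells, with the median log2 fold change of the tested members at the end of each bar. Adhesion, interferon-stimulated and lysosomal genes were mostly called higher, cytosolic ribosomal proteins had 24 of 72 called lower and 0 higher, and DNA replication and mitosis were mostly not called.

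Of the cell cycle genes, those of DNA replication and mitosis were mostly not called. Of 40 DNA replication genes, all tested, 0 rose, 5 fell (POLD1, POLE, MCM4, RFC2 and GINS2) and 35 were not called. Of 36 mitosis genes, 2 rose (HMMR and CDK1), 0 fell and 34 were not called. In both lists the counts in each direction were the same at an unadjusted p under 0.05 with the same 1.5-fold minimum, when 22.7% of all tested genes were higher and 18.2% lower, and with DESeq2. With 1 library left out, from 0 to 6 mitosis genes were higher and from 0 to 2 lower. MCM4, a subunit of the replicative helicase, had 539 and 548 CPM without ATRA and 333 and 309 with it (log2 fold change -0.76, standard error 0.12, adjusted p = 5.35e-04 from edgeR). POLD1, a DNA polymerase subunit, was at 121 CPM in the treated control replicate 1 and 65.4 in replicate 2, against 115 and 120 in the scramble cells, on the scale common to all libraries. POLE, another polymerase subunit, was at 330.0 and 131 CPM there, against 392.3 and 360.2, so that the treated control replicates stood far apart for both genes, and the part of the share outside genes in these falls was not tested. POLE was not called when all 8 libraries were fitted together (adjusted p = 0.0808, edgeR), nor was RFC2 without shKDM3B+ATRA replicate 1. MKI67, the gene of the proliferation antigen Ki-67, had 1147 and 1201 CPM without ATRA and 860 and 761 with it, a log2 fold change of -0.53 that was under the 1.5-fold limit, but past it with upper-quartile scaling (-0.60), without shKDM3B replicate 1 (-0.62) and without shKDM3B+ATRA replicate 1 (-0.62). MKI67 in the treated control cells was at 1478 CPM in replicate 1 and 535 in replicate 2, against 986 and 1175 without ATRA, above them in one and below them in the other. CDK1, the mitotic kinase, had 251 and 166 CPM without ATRA and 321 and 308 with it (log2 fold change 0.60, standard error 0.18, adjusted p = 0.0200 from edgeR), and its call was lost under 7 alternatives, among them the fit of all 8 libraries (adjusted p = 0.143, edgeR), upper-quartile scaling (0.53) and the fits without shKDM3B replicate 2 (0.32) or shKDM3B+ATRA replicate 1 (0.57). HMMR, a spindle-associated protein, had a log2 fold change of 0.71 that dropped to 0.49 without shKDM3B replicate 2, which ended its call. Among 23 tested cyclins, kinases and inhibitors of 26, 5 rose, 3 fell and 15 were not called. CDKN2D, the inhibitor p19, rose from 9.25 and 13.1 CPM to 36.3 and 63.5 (log2 fold change 2.15, standard error 0.27, adjusted p = 1.69e-04 from edgeR). CDK4, a kinase of the G1 phase, went from 268 and 265 CPM to 160 and 162 (log2 fold change -0.73, standard error 0.12, adjusted p = 7.02e-04 from edgeR). BTG2, an antiproliferative factor, rose from 1.52 and 1.43 CPM to 5.31 and 10.1, and the cyclin CCND1 from 58.7 and 75.8 CPM to 140 and 153. CDKN1A, the inhibitor p21, had 0.356 and 0.638 CPM without ATRA and 0.975 and 1.45 with it, and was not called (adjusted p = 0.0679 from edgeR), though it was with edgeR's likelihood ratio test.

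MYC fell, and genes of ribosome production that were called were mostly lower. Of 30 tested genes of the MYC network and ribosome biogenesis, of 31 listed, 2 rose, 13 fell and 15 were not called. MYC had 757 and 902 CPM without ATRA and 385 and 357 with it, and its log2 fold change was -1.16 with a standard error of 0.13 (adjusted p = 7.56e-05, edgeR). FBL, the nucleolar methyltransferase fibrillarin, fell from 207 and 225 CPM to 104 and 108 (log2 fold change -1.03, standard error 0.12, adjusted p = 1.10e-04 from edgeR). NCL, the nucleolar protein nucleolin, went from 2556 and 2274 CPM to 1679 and 1523, and the call of its log2 fold change of -0.59 was lost in 6 alternatives, at -0.52 without shKDM3B+ATRA replicate 2. The ribosome biogenesis factor BOP1 fell from 87.7 and 103 CPM to 45.6 and 42.7. MXD3, a MAX partner that opposes MYC, rose from 9.45 and 11.7 CPM to 109 and 125, but had 287 counts in the treated control replicate 1 and 1564 in replicate 2. Of 72 tested cytosolic ribosomal protein genes, of 73 listed, 0 rose, 24 fell and 48 were not called, with a median log2 fold change of -0.43 (0.01 in the scramble cells). At an unadjusted p under 0.05, and with DESeq2, 1 was higher. RPL37A fell from 847 and 737 CPM to 273 and 314 (log2 fold change -1.43, standard error 0.13, adjusted p = 2.15e-05 from edgeR), and RPS3 from 2239 and 1897 CPM to 1040 and 1083 (log2 fold change -0.96, standard error 0.12, adjusted p = 1.85e-04 from edgeR). For both, the treated control replicate 2 was also lower than replicate 1, by 0.82 and 0.67 on the log2 scale, and the part of the share outside genes was not tested. RPS18 was listed at 11 or fewer counts in every library.

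Of 34 apoptosis regulators, 33 were tested, of which 13 rose, 3 fell and 17 were not called. BCL2, the founding survival factor, had 57.9 and 56.8 CPM without ATRA and 3.90 and 3.84 with it, a log2 fold change of -3.89 with a standard error of 0.18 (adjusted p = 4.08e-07, edgeR). BCL2A1, a related survival factor of neutrophils, moved in the opposite direction, from 1.83 and 1.73 CPM to 69.3 and 118 (log2 fold change 5.72, standard error 0.29, adjusted p = 5.59e-07 from edgeR). MCL1, another member of the family and the highest gene of the list, rose from 213 and 188 CPM to 313 and 350 (log2 fold change 0.73, standard error 0.13, adjusted p = 0.00122 from edgeR). The groups did not overlap for any of the 3. CASP1, the inflammatory caspase, had 4.01 and 2.73 CPM without ATRA and 43.4 and 55.2 with it (log2 fold change 3.89, standard error 0.24, adjusted p = 1.84e-06 from edgeR). BBC3, the p53 target PUMA, fell from 5.23 and 6.99 CPM to 0.758 and 1.45 (log2 fold change -2.46, standard error 0.39, adjusted p = 7.14e-04 from edgeR).

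Interferon-stimulated genes had the highest share called among the lists of at least 10 tested members. Of 35 listed, 24 were tested, of which 20 rose, 1 fell and 3 were not called, with a median log2 fold change of 1.64. B2M, the light chain of MHC class I and the highest gene of the list, had 244 and 261 CPM without ATRA and 735 and 839 with it (log2 fold change 1.64, standard error 0.13, adjusted p = 7.00e-06 from edgeR). TRIM22, an antiviral ubiquitin ligase, had 1.17 and 1.03 CPM without ATRA and 15.4 and 27.7 with it (log2 fold change 4.29, standard error 0.35, adjusted p = 9.97e-06 from edgeR). OAS1, which senses double-stranded RNA, had 0.102 and 0.243 CPM without ATRA and 2.71 and 9.96 with it (log2 fold change 5.04, standard error 0.70, adjusted p = 3.00e-04 from edgeR). Replicate 2 was the higher of the treated pair for these 3 genes, by more than 3-fold for OAS1, whose 2 treated control libraries also differed, with 34 and 112 counts. IFIT5, an antiviral RNA-binding protein, had 5 and 2 counts without ATRA and 73 and 153 with it. The member that fell was HERC5, the ligase for ISG15, from 16.7 and 12.9 CPM to 5.31 and 5.39 (log2 fold change -1.46, standard error 0.24, adjusted p = 9.04e-04 from edgeR).

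Of 30 lysosomal genes, 29 were tested, of which 17 rose, 1 fell and 11 were not called, with a median log2 fold change of 0.88. PSAP, the precursor of the saposins and the highest of them, had 434 and 447 CPM without ATRA and 997 and 923 with it (log2 fold change 1.12, standard error 0.12, adjusted p = 4.44e-05 from edgeR). CTSD, the aspartic protease cathepsin D, rose from 31.1 and 43.9 CPM to 293 and 438 (log2 fold change 3.28, standard error 0.23, adjusted p = 3.75e-06 from edgeR). CTSS, the cysteine protease cathepsin S, had 49.0 and 37.4 CPM without ATRA and 204 and 216 with it (log2 fold change 2.28, standard error 0.16, adjusted p = 3.58e-06 from edgeR). CTSH, a related protease, was the one that fell, from 82.3 and 105 CPM to 13.2 and 18.9 (log2 fold change -2.55, standard error 0.21, adjusted p = 9.84e-06 from edgeR). By contrast, of 28 tested genes of cholesterol synthesis and lipid handling, of 31 listed, 3 rose, 3 fell and 22 were not called, with a median log2 fold change of -0.06. LPL, lipoprotein lipase, fell from 64.5 and 59.7 CPM to 18.8 and 15.4 (log2 fold change -1.86, standard error 0.17, adjusted p = 1.73e-05 from edgeR). CD36, a scavenger receptor for lipids, had 0.610 and 0.699 CPM without ATRA and 5.74 and 4.36 with it (log2 fold change 2.92, standard error 0.37, adjusted p = 1.62e-04 from edgeR).

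Of 19 enzymes and readers of H3K9 methylation, the mark that KDM3B acts on, 18 were tested, of which 1 rose, 5 fell and 12 were not called. KDM3A, the closest relative of KDM3B, had 86.2 and 84.3 CPM without ATRA and 42.7 and 44.2 with it (log2 fold change -0.97, standard error 0.13, adjusted p = 2.68e-04 from edgeR). KDM1A, the demethylase LSD1, fell from 260 and 269 CPM to 151 and 135 (log2 fold change -0.89, standard error 0.12, adjusted p = 2.93e-04 from edgeR). KDM4B and KDM7A, also demethylases, and EHMT1, a methyltransferase, were the others that fell. SETDB2, a methyltransferase, rose from 52.6 and 39.2 CPM to 80.7 and 84.6 (log2 fold change 0.85, standard error 0.16, adjusted p = 0.00210 from edgeR).

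The study defined a signature of 29 genes from the binding of PML/RARα and the expression changes in these samples, so that its direction here is not independent evidence. Of its members, 28 were tested, of which 16 rose, 4 fell and 8 were not called, with a median log2 fold change of 1.25. PLCB2, a phospholipase C, had 26.5 and 27.2 CPM without ATRA and 589 and 591 with it (log2 fold change 4.46, standard error 0.13, adjusted p = 2.59e-08 from edgeR). PRAM1, an adaptor protein silenced by PML/RARα, had 16.8 and 24.7 CPM without ATRA and 338 and 427 with it (log2 fold change 4.19, standard error 0.21, adjusted p = 4.97e-07 from edgeR). TMEM173, the innate immune adaptor STING, had 52.3 and 42.8 CPM without ATRA and 751 and 705 with it (log2 fold change 3.94, standard error 0.15, adjusted p = 1.18e-07 from edgeR). FGR and ALOX5AP, given above, belong to the same signature. HES1, MMP9, PPARG and CAPG were the members that fell, HES1, a repressor downstream of Notch, from 2.74 and 3.95 CPM to 0.217 and 0.415.

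Several genes measured elsewhere in the study were looked up. LMO2, a transcriptional cofactor, had 71.1 and 71.3 CPM without ATRA and 53.4 and 55.5 with it, a log2 fold change of -0.39 that was not called. KDM5B, an H3K4 demethylase, fell from 207 and 203 CPM to 128 and 118 (log2 fold change -0.73, standard error 0.12, adjusted p = 8.57e-04 from edgeR, or 0.0503 in the fit of all 8 libraries). MAGEB2, a cancer-testis antigen, had 1.07 and 2.07 CPM without ATRA and 11.2 and 7.88 with it (log2 fold change 2.56, standard error 0.38, adjusted p = 4.25e-04 from edgeR), against 2 or fewer counts in each control library. ADGRE1, an adhesion receptor of myeloid cells, had 0.457 and 0.729 CPM without ATRA and 2.06 and 2.90 with it (log2 fold change 2.01, standard error 0.43, adjusted p = 0.00363 from edgeR). ADGRE1 was not called without shKDM3B+ATRA replicate 2 (adjusted p = 0.0543, edgeR). CREB5, a CREB-family factor, had 0.813 and 0.547 CPM without ATRA and 2.49 and 1.04 with it (log2 fold change 1.40, standard error 0.51, adjusted p = 0.0456 from edgeR), and lost its call under 8 alternatives, among them DESeq2 (adjusted p = 0.195), the fit of all 8 libraries (adjusted p = 0.164, edgeR) and the fits without shKDM3B replicate 2 or shKDM3B+ATRA replicate 1. GATA1, an erythroid factor, had 0.966 and 1.55 CPM without ATRA (19 and 51 counts) and 0.433 and 0.519 with it (4 and 5 counts). Its log2 fold change was -1.41 with a standard error of 0.52 (adjusted p = 0.0458, edgeR). This call was lost under 8 alternatives, among them without either treated library, with the replicate block (adjusted p = 0.0526, edgeR) and with DESeq2 (adjusted p = 0.270). The glutamate receptor gene GRID1 (26 and 16 counts without ATRA, 3 and 10 with it) was not called, and the protease gene TMPRSS4 (5 and 40 counts without ATRA, 0 and 3 with it) was too low to be tested. ACTB, β-actin and a usual reference gene, had 3945 and 6245 CPM without ATRA and 6814 and 7705 with it, a log2 fold change of 0.51 that was not called but reached 0.88 without shKDM3B replicate 2.

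The cell type of the libraries was checked against markers. Of 10 promyelocyte markers, 6 were tested, of which 0 rose, 5 fell and 1, CD33, was not called, with 0 higher also at an unadjusted p under 0.05 and with DESeq2, but CD33 higher at 0.62 without shKDM3B replicate 2, while ELANE, PRTN3, AZU1 and KIT were too low. The summed level of the 6 tested markers was 9225 and 10698 CPM without ATRA and 3575 and 2670 with it, mostly MPO. Of 7 markers of stem cells and antigen presentation, CD74 alone was tested and rose from 3 and 4 counts to 57 and 28. Of 12 markers of monocytes and macrophages, 9 including CD14, CD163 and MRC1 were too low to be tested. The summed level of the 3 tested ones was from 17.7 to 30.5 CPM without ATRA and from 16.5 to 29.2 with it. Of 18 erythroid and megakaryocyte markers, 4 were tested, 1 rose (GP1BA) and 1 fell (GATA1), and the globins were too low. Of 14 lymphoid markers, 5 were tested, among which CD4 and CD79A rose and CD79B fell. CD4, which lost its call without shKDM3B replicate 1 and which myeloid cells also carry, made up most of their summed 239 and 274 CPM without ATRA and 411 and 384 with it. The part of other cell types in the response was not tested. CD14 had from 2 to 5 counts in each knockdown library and the globin HBB 0.

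The same treatment in the scramble cells shares no library with the knockdown comparison. There, 988 of 12317 genes rose (8.02%) and 624 fell (5.07%). Of 11872 genes tested in both lines, 841 rose in both, which is 38.2% of the 2199 that rose in the knockdown cells and 91.9% of the 915 that rose in the control cells. Another 559 fell in both, 26.4% of 2114 and 93.0% of 601. Over these genes, the log2 fold changes of the 2 lines had a Pearson correlation of 0.898 and a Spearman correlation of 0.836, given as a description, since genes are not independent replicates. The median difference between the lines, knockdown minus control, was -0.07 for the 841 genes that rose in both and -0.08 for the 559 that fell in both. The 2 treated control libraries differed in the share of read pairs outside genes, and each was set beside the untreated controls on its own. Of the 2693 genes that rose in the knockdown cells, 1819 (67.5%) were above both scramble libraries in the treated control replicate 1, against 38.6% of all tested genes, and 2614 (97.1%) in replicate 2, against 44.5%. Of the 2147 that fell, 1713 (79.8%) were below both in replicate 1, against 39% of all tested genes, and 2020 (94.1%) in replicate 2, against 41.3%.

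Whether the response itself differed between the lines was asked with an interaction term fitted to the 8 libraries. By edgeR, 0 of 13199 genes passed an adjusted p under 0.05, and 617 (4.67%) had an unadjusted p under 0.05, of which 242 were higher (1.83%) and 375 lower (2.84%) in the knockdown than in the control response. DESeq2 gave 25 genes at an adjusted p under 0.05. Without the treated control replicate 2, edgeR gave 381, and without replicate 1 it gave 2. On simulated data, the interaction test found 43% of genes changed 3-fold, so differences of this size could be missed. S100A9, whose level with ATRA was lower in the knockdown libraries, is given as an example. On the scale common to all libraries, S100A9 had 8.73 and 3.68 CPM in the scramble cells, 480 and 549 in the scramble+ATRA cells, 3.13 and 4.08 in the shKDM3B cells and 35.7 and 48.6 in the shKDM3B+ATRA cells. The interaction of S100A9 was -2.85 on the log2 scale (standard error 0.51, adjusted p = 0.729 from edgeR). ITGAM had 20.3 and 26.0 CPM in the scramble cells, 217 and 157 in the scramble+ATRA cells, 9.54 and 14.9 in the shKDM3B cells and 107 and 109 in the shKDM3B+ATRA cells. Each knockdown group of ITGAM lay below the matching control group, and the log2 fold changes with ATRA were 3.13 in the knockdown and 3.02 in the control cells, with an interaction of 0.12 (adjusted p = 1.00 from edgeR).

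The 5 genes with the smallest interaction p were YWHAE, SAMD9L, ITGA6, HBEGF and INTS3, none of which passed the adjustment. SAMD9L, an interferon-inducible antiproliferative gene, had 4.86 and 3.34 CPM in the scramble cells, 30.1 and 27.1 in the scramble+ATRA cells, 1.14 and 0.768 in the shKDM3B cells and 40.8 and 43.4 in the shKDM3B+ATRA cells. The laminin receptor chain ITGA6 had 12.3 and 12.96 CPM in the scramble cells, 170 and 157 in the scramble+ATRA cells, 34.2 and 27.0 in the shKDM3B cells and 137 and 141 in the shKDM3B+ATRA cells. HBEGF, a ligand of the EGF receptor, had 6.94 and 5.77 CPM in the scramble cells, 100 and 114 in the scramble+ATRA cells, 9.64 and 13.7 in the shKDM3B cells and 56.1 and 60.9 in the shKDM3B+ATRA cells. SAMD9L was the one of these 3 with the larger log2 fold change in the knockdown cells, 5.49 against 2.81, where ITGA6 had 2.18 against 3.70 and HBEGF 2.31 against 4.08.

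**Figure D4:**
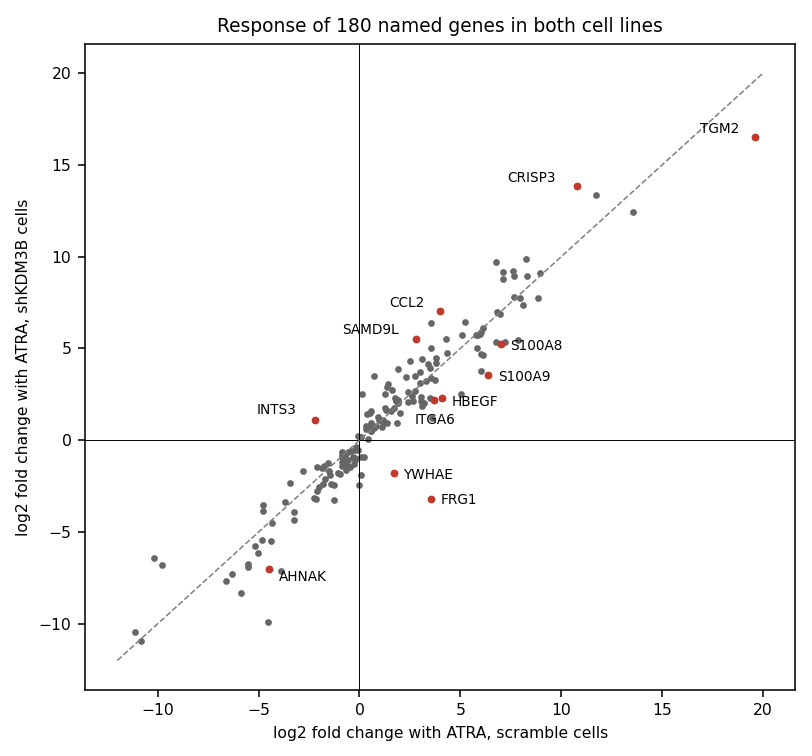
Log2 fold change with ATRA of named genes that were tested in both lines, with scramble cells on the horizontal and shKDM3B cells on the vertical axis. The dashed line marks equal values, and red points are labelled genes. YWHAE and FRG1 were called higher in the control and lower in the knockdown cells and INTS3 the reverse, while most points lie near the line.

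Genes on overlapping strands were treated separately, because the sources do not state whether the counting used strand. Of the genes whose exons overlap none on the opposite strand, 17.2% of 6608 rose and 19.6% fell. Of genes with some overlap, 27.1% of 5260 rose and 14.3% fell, and of those with more than 50% of their exon length overlapped, 53.8% of 210 rose and 8.10% fell. When the fit was limited to genes without overlap, the balance turned, with 1138 genes higher and 1239 lower. Among 10826 protein-coding genes, 20.4% rose and 17.2% fell, and among 496 long noncoding RNAs, 47.0% rose and 7.66% fell. Of the 10 largest rises, CICP14 was overlapped over 100% of its exon length, ABALON over 91.2%, RBM5-AS1 over 72.7%, EDRF1-AS1 over 44.8%, OPA1-AS1 over 41.9%, HIC1 over 29.8% and KIF7 over 10.8%. For other named genes the overlapped share was 44.2% for CDK4, 43.9% for CEBPA, 42.3% for ITGB7, 34.7% for LYZ, 32.1% for ALDH1A3, 31.0% for PLAU, 24.6% for VIM, 24.2% for MXD3, 23.4% for CTSD, 22.9% for IRF1 and 21.4% for RARA, so that reads of these genes and of their neighbours may be mixed. For KDM3B, CRISP3, PTGES, RARB, CEBPE, ITGAM, ALOX5AP, MPO, CTSG, BCL2 and AHNAK it was 0.

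**Figure D5:**
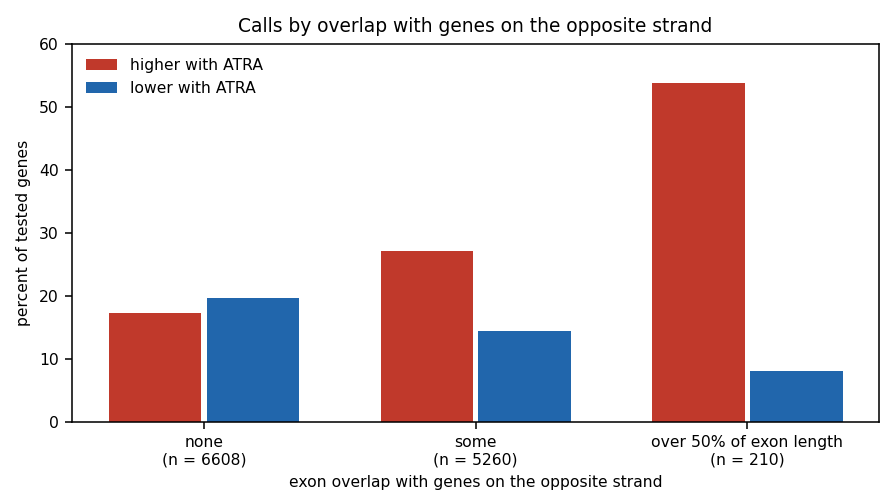
Percent of tested genes that rose (red) and fell (blue) with ATRA in the knockdown cells, by the share of their exon length that overlaps exons of genes on the opposite strand. The share that rose was 17.2% without overlap and 53.8% with more than 50% overlap.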

How the data were processed

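RNA-seq was made from total RNA of NB4 cells with the TruSeq RNA kit. Per the methods and the submitters' processing notes, the authors aligned the reads to hg38 with HISAT2 and counted them with HTSeq. The deposited files hold whole-number counts per gene without normalization, and the strand setting and tool versions are not given in the sources used here. Groups came from the sample titles.

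The shKDM3B+ATRA and shKDM3B libraries were compared with edgeR 4.0.16 in R 4.3.3 (filterByExpr, TMM scaling, quasi-likelihood F test, Benjamini-Hochberg adjustment over all tested genes). The standard error was the size of the log2 fold change divided by the square root of F. Genes at 0 in a group were set at 3 counts per library to give a bound, and for 1 to 3 counts an exact 95% interval of the pooled ratio was computed. Setting genes at these bounds left every list's median unchanged. Both cover counting error only, since reads carry no molecular identifiers. An exact permutation test of 2 libraries against 2 was not used, since it cannot pass 0.05. The members and gene lists were chosen with earlier results of these data known.

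Named were KDM3B, the 10 largest rises and falls with at least 100 counts in each library of the higher group, the leading called genes of each list, genes the study measured and the 5 smallest interaction p. Genes outside this rule, among them RARA, RXRA, PML, DHRS3, CYP26B1, CEBPE, SPI1, IRF1, MMP9, CSF3R, MKI67, HK3 and VIM, were named after their values were seen. Replicates differed by more than sampling noise. Positions and exon overlaps came from GENCODE v44 on hg38 (34315 of 36200 members matched, bedtools 2.31.1) and promoter windows from RefSeq. On simulated data, 84% of genes changed 3-fold and 21% of those changed 1.5-fold were called, with 0.0665% of unchanged genes, over 12232 genes. Alternatives were other scalings, filters, tests (DESeq2 1.42.0 among them) and gene sets, a replicate block and each library left out. Python 3.11.15 and pandas 2.3.3 handled tables. Results for some genes are not reported here.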

Additional observations from a re-analysis of the deposited data

Results flagged for a closer look

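In 4 named genes, called in the knockdown cells, both ATRA libraries lay on one side of the untreated ones in the knockdown and on the other side in the control cells. For 3 of them (YWHAE, INTS3 and FRG1) both changes were called. No interaction passed the adjustment over 13199 genes in edgeR's quasi-likelihood test. YWHAE, the adaptor protein 14-3-3 epsilon, had a log2 fold change of -1.80 in the knockdown cells and 1.70 in the control cells (interaction adjusted p = 0.242). Its levels were 30.2 and 22.2 CPM in the scramble cells, 91.8 and 77.8 in the scramble+ATRA cells, 76.2 and 44.9 in the shKDM3B cells and 18.6 and 16.4 in the shKDM3B+ATRA cells. INTS3, a subunit of the Integrator complex, had a log2 fold change of 1.12 in the knockdown cells (adjusted p = 0.0538 by edgeR in the fit of all 8 libraries) and -2.19 in the control cells (interaction adjusted p = 0.729). It had 13.9 and 5.89 CPM in the scramble cells, 1.90 and 2.45 in the scramble+ATRA cells, 9.59 and 9.73 in the shKDM3B cells and 19.1 and 23.1 in the shKDM3B+ATRA cells.

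FRG1, a nuclear actin-bundling protein, had a log2 fold change of -3.18 in the knockdown cells and 3.57 in the control cells (interaction adjusted p = 0.762), but its treated control libraries were at 17.7 and 2.07 CPM, far apart. ZNF503, a zinc finger repressor, had a log2 fold change of -0.91 in the knockdown cells, where it was called, and 0.22 in the control cells, where it was not (interaction adjusted p = 0.762). Both of its treated knockdown libraries, at 13.6 and 14.8 CPM, lay below the untreated ones at 24.9 and 28.2, and both treated control libraries, at 21.7 and 22.6, lay above the untreated ones at 18.6 and 19.8.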

How the results depend on the processing

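Of 186 called named genes, 160 kept their direction and threshold in every alternative that could be fitted, of 18. The counts of genes higher and lower stayed within 1.5 times of 2693 and 2147 except in the fit limited to genes without exon overlap on the opposite strand, which gave 1138 and 1239 from fewer genes. For the gene lists, 845 of 918 counts under the alternatives stayed within 1.5 times of the main count, and the others moved further. Upper-quartile scaling gave 2518 and 2403, DESeq2 2451 and 1912, and leaving out each library in turn from 2270 to 2888 and from 1748 to 2565. With the replicate block, where deviations from the group means of libraries with one number correlated at 0.196 over 11395 genes, the counts were 2804 and 2228, and the interaction count stayed at 0. The labels do not say what a replicate number marks.

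The interaction count was 617 with an unadjusted p, 25 with DESeq2, 2 with the stricter drop of genes that differ between the treated control libraries, and with each library left out from 0 to 381, the highest without scramble+ATRA replicate 2. Leaving out the knockdown and untreated control libraries was added after seeing the data. GRID1 ranged from -1.40 to 0.44 when a library was left out, at 0.26 without shKDM3B+ATRA replicate 1, and RARA from -0.25 to 0.42, at -0.20 without shKDM3B+ATRA replicate 2, so that both changed sign, and neither was called. The cause was not tested. Depth limits genes under about 3 counts, and with 2 libraries a group a single library left out leaves the other to stand alone, its spread taken from the other group.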

Other observations

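Several genes outside the lists, chosen here after their values were seen, had wide gaps between the groups. PADI4, which turns histone arginine into citrulline and is needed for neutrophil extracellular traps, had 2.13 and 3.77 CPM in shKDM3B cells and 173 and 155 with ATRA, with 5.74 as its fitted log2 fold change (standard error 0.24, adjusted p = 1.69e-07 by edgeR). CD52, a surface glycoprotein of leukocytes, had 0.254 and 0.607 CPM without ATRA and 50.05 and 69.2 with it. In the treated control replicate 1, PADI4 had 6441 counts and CD52 3525. ASS1, the argininosuccinate synthase of arginine production, had 267 and 272 CPM without ATRA and 6.39 and 6.22 with it, with -5.42 as its fitted log2 fold change (standard error 0.16, adjusted p = 2.33e-08 by edgeR). HDC, the enzyme that makes histamine, had 95.7 and 178 CPM without ATRA and 0.758 and 5.29 with it, both treated libraries lying below both untreated ones.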
